A study of Mus musculus with 3 samples.

Results

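Splicing factor and hnRNP genes were taken as the genes with an assigned SRF interval whose symbol begins with Hnrnp, Srsf, Sf3a, Sf3b, Snrp or Rbm. This name rule used no measured value. It gave 80 of the 16697 genes listed by the authors: 17 Hnrnp, 9 Srsf, 7 Sf3a or Sf3b, 11 Snrp and 36 Rbm genes. Their regions numbered 170 of 31850, joined to the genes by 172 assignments because 2 regions belonged to 2 members each. SRF, the serum response factor, was immunoprecipitated with its DNA from whole mouse cornea, and the DNA was sequenced. A library came from Dstn-corn1 mice, whose destrin (an actin-depolymerizing protein) is not functional, and another from wildtype mice, both of about 8 weeks, on a mixed background and untreated. The input library, DNA without antibody, entered no comparison. Each genotype had 1 library and the number of mice behind it was not given, so differences between the genotypes were without replicates and were not tested.

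Pre-mRNA splicing removes introns in the nucleus. Small nuclear ribonucleoproteins, built on a ring of Sm proteins encoded by Snrp genes, recognize the intron, and the Sf3a and Sf3b complexes join the U2 particle at the branch site. SR proteins (Srsf genes) mostly promote the use of exons, hnRNPs coat nascent transcripts and often repress exons, and Rbm genes encode a mixed set of proteins with RNA recognition motifs. SRF binds a short A/T-rich element called the CArG box and is best known at actin cytoskeleton and growth-response genes.

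Values below are peak heights, the authors' signal at the highest point of a merged region. Each gene is described by its region of highest mean height unless stated otherwise. In 53 members this region was also assigned to other genes, and in 27 to the member alone. Heights of the shared regions cannot be attributed to the member over the other genes. Regions given as past the start include some listed downstream of the gene, such as the highest of Hnrnpa1, Hnrnpul1, Srsf1, Srsf3, Sf3a2 and Snrpd2. How deeply the libraries were sequenced is unknown. The labels were checked on Dstn: all 3 of its regions were listed at 0 in the mutant library and at 11 to 35 in wildtype. The heights hold no expression, so the tissue label was not checked here. The mutant library was lower at most regions, with a median log2 ratio of mutant to wildtype (1 added to each height) of -1.08 over all genes. Scaling the libraries to a common median, taken over the regions that both called, raised the median over genes by 1.03, to -0.049. Ratios are therefore also given relative to the median of all genes.

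The highest member regions lay at gene starts, and the promoter sequences under 3 of the highest are shown first because they hold or border the summits of those regions. The windows run from 250 bases before to 50 bases after a RefSeq transcript start (GRCm38.p6, the same build as mm10, RefSeq annotation), are written 5′ to 3′ in the direction of the gene, and were available for 69 of the 80 members. Capitals mark the 21 bases centred on the wildtype summit, where the summit fell inside the window. They are Hnrnpa2b1 at chr6:51469845-51470144 (minus strand), Snrpb2 at chr2:143062819-143063118 (plus strand) and Snrpa1 at chr7:66060086-66060385 (plus strand).
Hnrnpa2b1: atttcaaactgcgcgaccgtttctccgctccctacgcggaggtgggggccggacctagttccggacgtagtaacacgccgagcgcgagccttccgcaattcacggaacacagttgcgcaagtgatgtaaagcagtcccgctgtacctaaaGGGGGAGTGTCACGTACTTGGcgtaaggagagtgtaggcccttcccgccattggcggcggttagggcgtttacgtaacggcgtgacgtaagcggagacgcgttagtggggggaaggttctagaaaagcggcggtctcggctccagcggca
Snrpb2: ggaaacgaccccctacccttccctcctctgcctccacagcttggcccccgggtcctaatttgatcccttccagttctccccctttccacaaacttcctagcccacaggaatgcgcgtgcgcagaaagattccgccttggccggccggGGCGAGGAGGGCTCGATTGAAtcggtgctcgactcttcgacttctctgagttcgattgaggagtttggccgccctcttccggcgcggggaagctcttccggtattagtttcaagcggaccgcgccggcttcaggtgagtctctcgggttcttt
Snrpa1: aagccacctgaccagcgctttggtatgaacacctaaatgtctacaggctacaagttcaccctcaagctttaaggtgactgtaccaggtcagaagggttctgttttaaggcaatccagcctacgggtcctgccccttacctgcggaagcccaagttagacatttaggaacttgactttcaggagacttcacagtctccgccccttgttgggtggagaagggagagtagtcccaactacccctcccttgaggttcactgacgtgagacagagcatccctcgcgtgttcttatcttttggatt
Summits lay 90 bases upstream of the start of Hnrnpa2b1 (listed as -90) and 93 upstream of that of Snrpb2 (-93). That of Snrpa1 lay 112 bases inside the gene, past the end of the window, so its sequence carries no capitals.

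The members were bound about as often as other genes in the deposited list, and more often than RefSeq genes as a whole. In the mutant library 61 members (76.2%) had an interval, against 73.8% of all listed genes, and in wildtype all 80 had one, against 99.0%. Of 99 protein-coding RefSeq genes with these name beginnings today, 83 had an interval (83.8%), against 66.1% of all 21896 protein-coding genes. The 3 beyond the 80 are Hnrnpdl, Hnrnpll and Sf3b6, which the authors list under older symbols and which the name rule therefore left out. The 16 without an interval include Srsf5, Srsf10, Hnrnpd, Sf3b4, Snrpn and Rbmx, named here as examples after their status was seen. By library, 63 of the 99 had a mutant interval (63.6%, against 49.6% of all protein-coding genes) and 83 a wildtype interval (65.5% of all).

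The members had regions at their starts more often than the rest of the list. A region lay within 1 kb of the gene start in 66 of the 80 (82.5%), against 48.3% of all genes with an interval, and 64 of these 66 regions were in a CpG island (97.0%, against 86.3% over all genes). All 11 Snrp and all 7 Sf3a and Sf3b genes had such a start region, as did 15 of 17 Hnrnp, 7 of 9 Srsf and 26 of 36 Rbm genes. The 14 without one include Rbm20, Rbm47, Rbms1, Rbms2 and Rbms3 among the Rbm genes, Srsf3 and Srsf12, and Hnrnpf and Hnrnph2. The start region was also the highest region of the gene in 43 of the 66 members (65.2%, against 56.6% over all genes), and the other 23 had a higher region elsewhere. In 22 of the 66 the start region also lay within 1 kb of the start of another gene (33.3%, against 27.5%), among them Hnrnpa2b1 with Cbx3, Snrpd2 with Qpctl and Snrpd3 with Gucd1. Signal in such regions cannot be assigned to either gene.

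**Figure D1:**
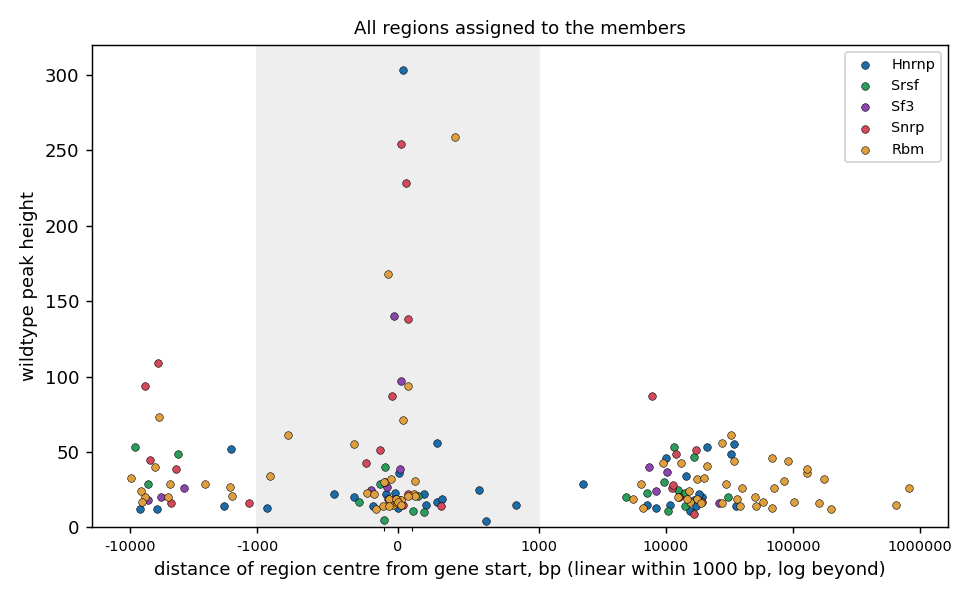
Each point is 1 of the 172 assignments of a region to a member, with the distance of the region's centre from the gene start (bp, linear within 1000 bp and log beyond) on the x axis and the wildtype peak height on the y axis, coloured by gene family. The grey band marks 1 kb on either side of the start, and every assignment with a wildtype height above 109 lies inside it.

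In height the members as a group did not stand above the list. Their median height was 17.5 in mutant and 33.5 in wildtype, against 18 and 40 over all genes. A few members were far higher than the rest: 5 had a mean height of at least 100, or 6.25% against 2.52% of all genes, and 14 one of at least 50, or 17.5% against 17.3% (both limits were chosen after the values were seen). Of the 100 highest regions of each library, 4 in wildtype and 3 in mutant were at members, which hold 170 of all 31850 regions.

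Among the hnRNP genes Hnrnpa2b1 stood alone. Its single region (gene 53379, chromosome 6, 51468652 to 51471067, centred 35 bp inside the gene) had a height of 160 in mutant and of 303 in wildtype, the 4th and 3rd highest of all regions. Hnrnpa2b1 encodes a pair of hnRNPs that bind pre-mRNA and guide RNA transport, and Cbx3, transcribed away from the same region, encodes a heterochromatin protein. The log2 ratio was -0.92, which is 0.16 above the median of all genes, and it turned to 0.15 with the libraries scaled. All other Hnrnp genes had heights of 56 or less in wildtype and 27 or less in mutant.

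Hnrnph1, an exon and polyadenylation regulator, followed with 27 in mutant and 56 in wildtype at its start. Hnrnpul1 had 23 and 55 at a region 34549 bp past its start, and 22 in both libraries at the start itself. Hnrnpa1, which encodes an abundant repressor of exons, had 20 and 46 at 9995 bp past its start and 17 and 22 at its start region. Hnrnpf, with 13 and 53 at 21137 bp past its start, had one of the lowest ratios of the members, at -1.95. Its region nearest to the start, 7025 bp past it, had 14 and 15. Hnrnpk had 19 and 34 at 14392 bp past its start and 15 in both libraries near its start. Hnrnpul1 also had 25 and 52 at a region upstream of its start (listed at -1614), so regions of lower mutant height lay both near to and far from its level start region.

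With 1 start region per gene, the one of highest mean height, 5 of 15 hnRNP genes had a mutant height at or above the wildtype one (10.5% of 8061 genes did), as did 11 of the 66 members. These were Hnrnpa3 (17 and 17), Hnrnpk (15 and 15), Hnrnpul1 (22 and 22), Hnrnpr (17 in mutant and 14 in wildtype) and Hnrnph3 (15 and 13). The median log2 ratio over the 15 was -0.38, against -0.79 over the start regions of all 8061 genes that had one. This was not particular to hnRNP genes. The start medians of the other families were -0.26 for Srsf, -0.62 for Snrp, -0.74 for Sf3a and Sf3b and -0.83 for Rbm. The 5 hnRNP start regions at or above wildtype were low, with mean heights from 14 to 22. Of all start regions with a mean height under 20, 16.1% had a mutant height at or above wildtype. Hnrnpa0 had a further, lower region within 1 kb of its start, 625 bp inside the gene, with 11 in mutant and 4 in wildtype and called in mutant only, beside 13 and 20 in its higher start region. Hnrnpu, a scaffold protein of nuclear chromatin, had 19 and 25 and Hnrnpul2, at 18182 bp past its start, 18 and 22; both are among the 5 highest ratios under the naming rule, at -0.38 and -0.28.

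**Figure D2:**
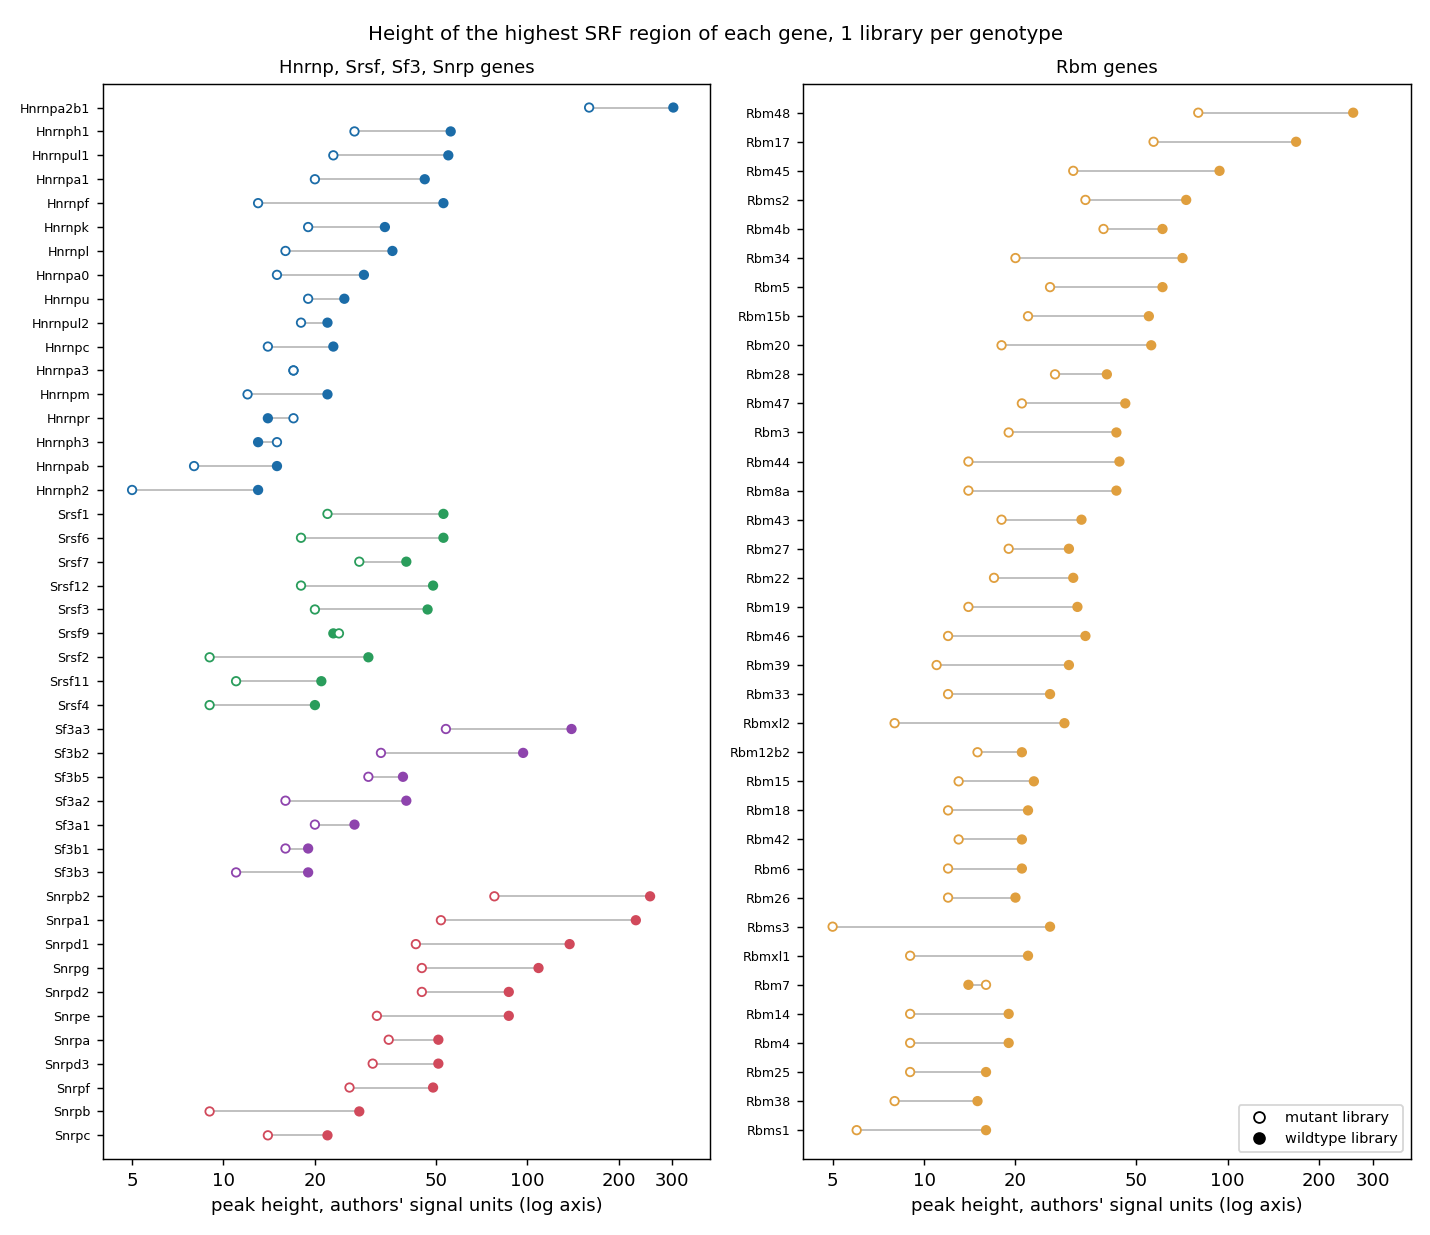
Peak height (log axis, the authors' signal units) of the highest region of each of the 80 members in the mutant library (open points) and the wildtype library (filled points), with a grey line joining them, grouped by family and ordered by mean height. Hnrnpa2b1, Rbm48, Snrpb2 and Snrpa1 have the 4 highest wildtype heights, and Hnrnpr, Hnrnph3, Srsf9 and Rbm7 are the only ones with the mutant point to the right.

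The snRNP genes had the highest family median, 35.0 in mutant and 87.0 in wildtype. The highest region lay at the start in 6 of the 11, and elsewhere in the others. At the start regions of the 11 genes the medians were 31 and 43, also the highest of the families. All 11 had intervals in both libraries, as did 61 of the 80 members and 12156 of all 16697 genes. Snrpb2 (gene 20639, chromosome 2, 143062389 to 143063783) had 78 in mutant and 254 in wildtype in a region 17 bp past its start that was assigned to no other gene. Snrpa1 (gene 68981, chromosome 7, 66059595 to 66061183) reached 52 and 228, a log2 ratio of -2.11 or 1.03 below the median of all genes, the second lowest ratio under the naming rule. It stayed at -1.06 with the libraries scaled. These genes encode the partner proteins that bind a stem of the U2 RNA together.

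The 7 Sm ring genes ranged widely, from 12 to 43 in mutant and from 15 to 138 in wildtype at their starts. Snrpd1 (chromosome 18, 10617374 to 10618352) had 43 and 138, and Snrpe (chromosome 1, 133609771 to 133610871) 32 and 87, with log2 ratios of -1.66 and -1.42. Snrpd2 had 42 and 43 at its start, shared with Qpctl, and 45 and 87 at a region 7709 bp past it. Snrpg had only 16 and 18 at its start, below a region 6090 bp upstream (listed at -6090) with 45 and 109 that was also assigned to Fam136a. Snrpf had 20 in mutant and 15 in wildtype at its start, and Snrpb 12 and 18. The Sm start regions included high ones that were more than 2-fold lower in mutant and others that were near level as deposited. The level ones were not all low, since that of Snrpd2, with a mean height of 42.5, had a log2 ratio of -0.03.

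Sf3a and Sf3b genes, whose products hold the U2 particle at the branch site, included 2 high start regions. A start region at or above the wildtype height in mutant was seen in 0 of the 7, against 10.5% of 8061 genes. Sf3a3 (gene 75062, chromosome 4, 124714362 to 124715305) had 54 in mutant and 140 in wildtype, and Sf3b2 (gene 319322, chromosome 19, 5294887 to 5295980) 33 and 97, with log2 ratios of -1.36 and -1.53. Sf3b5 had 30 and 39, Sf3a1 20 and 27, and Sf3b1, the largest subunit and a contact of the intron, 16 and 19 in its only region. Sf3a1 and Sf3b5 were among the 5 highest ratios under the naming rule, at -0.42 and -0.37. Sf3a2 was highest 7378 bp past its start, with 16 and 40. Taking Snrpa1, Snrpb2 and these Sf3a and Sf3b members with Sf3b3 together as 9 genes of U2 particle proteins, a group drawn after their values were seen, all 9 had a start region, 4 of them had a mean height of at least 50, and log2 ratios there ran from -2.11 to -0.23.

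SR protein genes had no high region. The wildtype heights of the 9 ran from 20 to 53 and the mutant heights from 9 to 28. Srsf1, the founding SR protein gene, had 22 and 53 at a region 11623 bp past its start and 13 and 29 at the start. Srsf6 had 18 and 53 upstream (-9122 bp) and 9 and 11 at its start, and Srsf12 had 18 and 49 (-4201 bp). Srsf3 had 20 and 47 at 16638 bp past its start and 25 in both libraries at 12443 bp past it. Only Srsf7 and Srsf11 were highest at the start, and Srsf7 had 28 and 40 there. Srsf9 had the highest ratio under the naming rule, with 24 and 23 at a region 14108 bp past its start and shared with 3 other genes. The start region of Srsf9 had 13 in mutant and 5 in wildtype and was called in mutant only. With 1 start region per gene, the one of highest mean height, Srsf9 was the 1 of 66 members at least 2-fold higher in mutant (0.323% of 8061 genes were).

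The Rbm genes held a few high start regions and a long tail of low or distant ones. Rbm48 (gene 269623) had 80 in mutant and 259 in wildtype. Rbm17 (gene 76938, chromosome 2, 11602801 to 11603742), which encodes a splicing factor that binds Sf3b1, had 57 and 168 and shared its region with no other gene, while some other Rbm regions were assigned to more than 1 gene. Rbm45 had 31 and 94 and Rbm34 20 and 71 at their starts. Rbm4b had 39 and 61 and Rbms2 34 and 73 at 5889 bp upstream (-5889). In mutant, 23 of the 36 Rbm genes had an interval (63.9%), below the 73.8% of all genes.

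Rbm20, a splicing regulator best known in heart muscle, had the most regions of any member. Its 8 regions lay inside the gene, from 27719 to 175548 bp past the start, with heights of 1 to 23 in mutant and 14 to 56 in wildtype. At least 2-fold lower in mutant were 6 of them, with log2 ratios down to -3.32, and 2 were called in mutant. Rbms3 was highest 827139 bp past its start, with 5 and 26, the lowest ratio under the naming rule at -2.17. Rbmxl2, a germ-cell paralog of Rbmx, had 8 and 29 and a ratio of -1.74, and Rbm34 one of -1.78. Rbm4 and Rbm14 shared their only region, with 9 and 19.

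The comparison of the genotypes asked whether the ratio of mutant to wildtype at the members differed from that at other genes. The medians were close, at -1.04 over the 80 members against -1.08 over all 16697 genes, with 43 members above the median of all genes. At least 2-fold lower in mutant were 43 members (53.8%), against 57.6% of all genes. The opposite, 2-fold higher or more, held for 0 members and for 0.198% of all genes. A mutant height above the wildtype one was seen in 4 members (5%, against 3.26%), namely Hnrnpr, Hnrnph3, Srsf9 and Rbm7. With the libraries scaled, 2 were lower (5.86% of all genes were) and 5 higher (4.22%), and by the average signal of the region, not its peak, 18 were lower, against 30.4% of all genes. By family the medians were -0.83 for Hnrnp, -1.19 for Srsf, -0.74 for Sf3a and Sf3b, -1.26 for Snrp and -1.09 for Rbm, and with the libraries scaled those of Hnrnp and of Sf3a and Sf3b were above 0, at 0.15 and 0.27. The families have from 7 to 36 members, and differences between them were not tested.

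**Figure D3:**
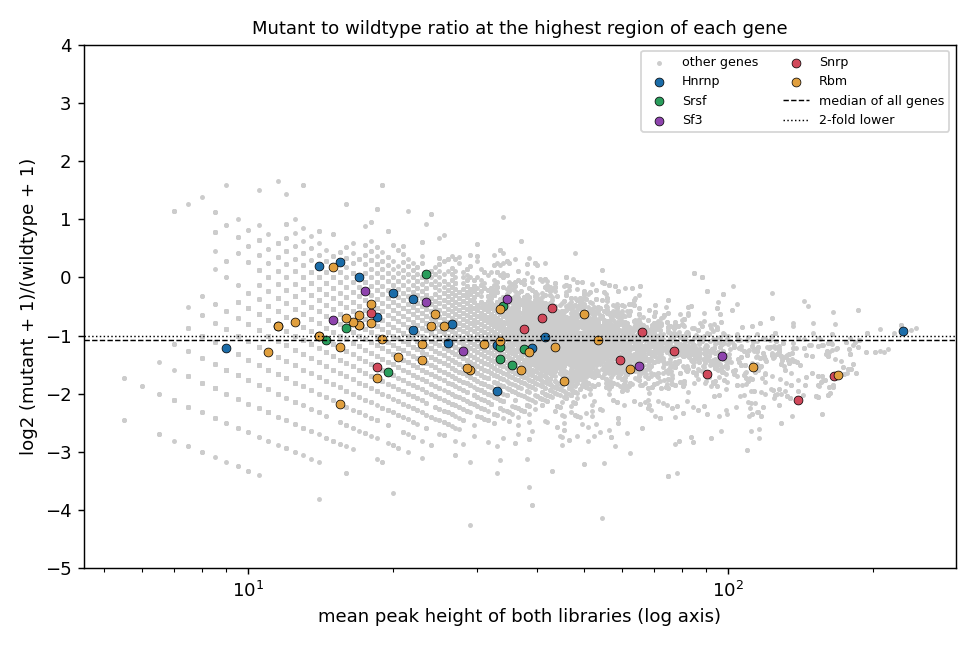
Log2 ratio of mutant to wildtype height (1 added to each) at the highest region of each gene against the mean height of both libraries (log axis), with members coloured by family and other genes in grey, leaving out genes at 0 in mutant. The members lie within the cloud of other genes, with a median of -1.04 against -1.08 (dashed line); the dotted line marks 2-fold lower.

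Over start regions the ratio went with height, among the members as among all genes. At least 2-fold lower in mutant at the start region of highest mean height were 21 of 66 members, against 38.8% of 8061 genes. Counting every region within 1 kb of a member's start, 69 in all, 11 had a mean height of at least 50, and 9 of these were at least 2-fold lower in mutant (81.8%, against 78.6% of 856 such regions of all genes). Their median log2 ratio was -1.54, against -1.28. Of 17 with a mean height from 20 to 50, 8 were (47.1%, against 46.3%). Of 41 under 20, 5 were (12.2%, against 27.0%), and 11 of the 41 were at or above the wildtype height in mutant (26.8%, against 16.1%). The median of these low regions, -0.58, was that of all low start regions. The 11 high regions are those of Hnrnpa2b1, Rbm48, Snrpb2, Snrpa1, Rbm17, Sf3a3, Snrpd1, Sf3b2, Rbm45, Snrpe and Rbm4b. Hnrnpa2b1, the highest, and Rbm4b were the exceptions that were less than 2-fold lower. The height limits were chosen after the values were seen, and low regions stand close to the lowest height at which intervals were called, which is 9 in the deposited list.

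Summits stood at nearly the same place in both genotypes at the high start regions. Member summits are listed in steps of 16 bp, so smaller shifts would not be seen. Summits of the mutant and wildtype intervals lay at most 32 bp apart at all 11 high start regions. The median over the 43 member start regions called in both libraries was 32 bp. Of these 43, 26 had summits within 50 bp of each other, and the largest distance was 1248 bp, at Hnrnpu. Of 56 members with a RefSeq window and a wildtype start interval, 34 had the wildtype summit inside the window, and the median summit was 69.5 bp upstream of the start (-69.5).

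Promoter windows of the members held no exact CArG box. None of the 69 members with a window had one on either strand, against 1.81% of 27025 RefSeq genes and 1.42% of the 6345 genes with a window and a start region. With shares this low, 0 of 69 does not set the members apart from other genes. With 1 mismatch allowed, 15 of 69 had one (21.7%, against 23.8% of all genes), and 12 of these had a start region. Because summit positions come in steps of 16 bp, shorter distances are not resolved. As listed, the matches closest to a wildtype summit were in Hnrnpl, centred 1 bp from it, and in Rbm19, 5 bp from it. These are shown, with 3 more chosen after their values were seen, with the match in capitals, as 30 bases each from RefSeq (GRCm38.p6): Hnrnpl at chr7:28810800-28810829 (plus), Rbm19 at chr5:120116508-120116537 (plus), Rbm45 at chr2:76369853-76369882 (plus), Snrpb2 at chr2:143062862-143062891 (plus) and Srsf7 at chr17:80207317-80207346 (minus).
Hnrnpl: tcccctccccCCAAGATAGGgccagtggct
Rbm19: acgtgactcgCTAAAAATGGcggcgcccag
Rbm45: ttgcataaacCCATTCTTGGttttccctgg
Snrpb2: gcccccgggtCCTAATTTGAtcccttccag
Srsf7: ccgcccgccgCCTATATAAGcgcgactccg
Start heights were 16 in mutant and 36 in wildtype at Hnrnpl, and 11 and 18 at Rbm19. Hnrnph1 also had a match, 1751 bp from its wildtype summit. Within 50 bp of the wildtype summit, 2 of 34 members had such a match (5.88%), against 4.78% of 3743 genes with a summit inside a window. A match is a description of the letters and not a binding site.

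The letters CCGGAAGT, the core bound by ETS factors such as the SRF partners of the TCF class, stood in 8 of 69 members on either strand (11.6%, against 4.31% of all RefSeq genes). Over genes with a start region the shares were level, at 7 of 59 members (11.9%) and 11% of 6345 genes. Sf3a3, Sf3b2 and Snrpe, 3 of the high start regions, were among the 7, and Sf3a1 and Rbm19 were among them too. They are shown for these 5 as 28 bases each, with CCGGAAGT or its reverse complement ACTTCCGG in capitals: Sf3a3 at chr4:124714760-124714787 (plus), Sf3b2 at chr19:5295451-5295478 (minus), Snrpe at chr1:133610257-133610284 (minus), Sf3a1 at chr11:4160337-4160364 (plus) and Rbm19 at chr5:120116471-120116498 (plus).
Sf3a3: cccccaagacACTTCCGGgacacgcgga
Sf3b2: gattacgcaaCCGGAAGTttctggaagt
Snrpe: ggtcttgcttCCGGAAGTcgctttccga
Sf3a1: gagggcgggaCCGGAAGTgctcccgcgg
Rbm19: ggccacacccACTTCCGGatggaacgcg
The letters were centred 54 bp from the wildtype summit at Sf3a3, 104 at Sf3b2, 130 at Snrpe, 79 at Sf3a1 and 43 at Rbm19. Within 50 bp of the wildtype summit, 1 of 34 members had the letters (2.94%), against 6.36% of 3743 genes with a summit inside a window. The median wildtype start height was 27 with the letters and 22 without among members, and 26 and 23 among all genes with a start region. The other motifs searched on both strands among genes with a start region were GGGCGG, the GC box, in 61.0% of members and 71.4% of all genes, TATAAA in 13.6% and 7.09%, the NRF1 motif in 1.69% and 2.40%, and a palindrome that begins with TCTCGC in 3.39% and 1.15%. The last 2 rest on 1 and 2 members. Windows of members had a median G+C content of 61.0%, against 52.7% over all windows.

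**Figure D4:**
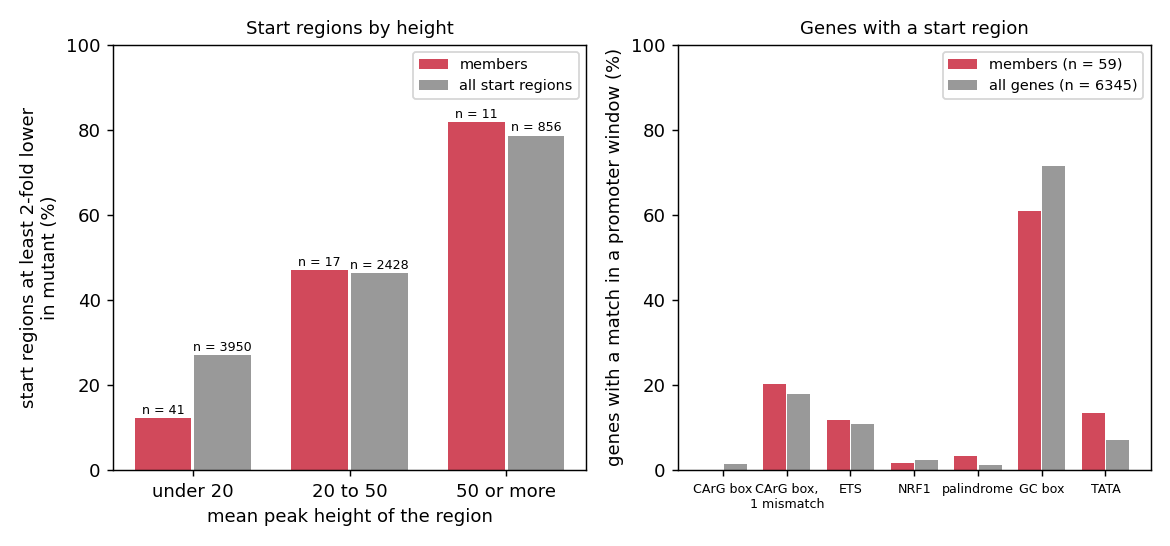
Left, share of start regions (%) at least 2-fold lower in mutant by mean height class, for regions at members and for all start regions, with the number of regions above each bar; the bars run from 12.2% to 81.8% for members. Right, share of genes with a start region (%) that hold each motif in a RefSeq promoter window, for 59 members and 6345 genes, with no exact CArG box in the members; the palindrome is the one that begins with TCTCGC.

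Other genes of RNA splicing outside the name rule were counted in 3 lists, and differences between these and the members were not tested. Of 50 further core spliceosome genes, 48 had an interval (66.1% of all protein-coding RefSeq genes did). Of the 48, 40 had one in mutant (83.3%, against 73.8% of all genes) and 40 a start region (83.3%, against 48.3%), and 21 (43.8%, against 57.6% of all genes) were at least 2-fold lower in mutant, with 0 higher. Lsm5, an Lsm ring gene, had the highest region of these, at 66 in mutant and 241 in wildtype, followed by U2surp (63 and 217), Dhx8 (75 and 190) and Ddx46 (36 and 151). Of 49 other splicing regulators 45 had an interval, 17 were at least 2-fold lower (37.8%, against 57.6%) and 1 was at least 2-fold higher (0.198% of all genes were). The higher one was Qk, with 10 in mutant and 4 in wildtype, close to the lowest height of a called interval, 9. Ddx17, an RNA helicase gene, led the regulators with 167 and 313 at its start. Cirbp (64 and 169, listed at -2839), Acin1 (55 and 99, 35591 bp past its start) and Matr3 (40 and 82, 36355 bp past its start) followed. Their regions were also assigned to other genes. Of 11 SR protein kinase and phosphatase genes 10 had an interval and 4 were at least 2-fold lower (40%, against 57.6%). The highest were Clk3 at 36 and 75, Ppm1g at 22 and 69, Dyrk1a at 36 and 46 and Clk4 at 30 and 50. The regions of Clk3 and Clk4 lay 6356 and 26494 bp past the start and were also assigned to other genes. The median log2 ratios of the 3 lists were -0.92, -0.89 and -0.78, against -1.08 over all genes, and 0.09, 0.16 and 0.24 with the libraries scaled, against -0.049.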

How the data were processed

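SRF ChIP libraries of mutant and wildtype cornea, 1 each, and an input library were sequenced. Genotypes come from the sample titles, although the labels' growth protocol names mutant mice for every library. The submitters' processing notes name BWA and the mouse build mm10. The interval caller, its threshold and the scaling between libraries were not given in the sources used here. Deposited by the authors were signal values for intervals called per library and for merged regions, each as a peak and an average value, with called flags and gene assignments. Peak values were used as heights, and coordinates are as listed. Input values were not used here.

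Members and gene lists were chosen with earlier results of these data known. Ratios are log2 of mutant over wildtype height with 1 added, which understates low regions. A gene is described by whichever of its regions has the highest mean height, ties going to the region nearest the start. Named genes are up to 6 of highest mean height per family, the 5 highest and 5 lowest ratios among members reaching a height of 20, and up to 4 per gene list; others named were chosen after their values were seen. All 80 members matched RefSeq by gene identifier. Scripts ran in Python 3.11.15 with pandas 2.3.3, numpy 2.4.6 and matplotlib 3.10.9 and were tested on simulated data. Depth is unknown, so no counting error is given. Some genes that share regions with members are not reported here.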

Additional observations from a re-analysis of the deposited data

How the results depend on the processing

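No paired analysis was possible because there was 1 library per genotype, and for the same reason no library could be left out. Member counts moved where fewer intervals or genes entered. With only intervals of height 24 or more, 25 members were bound in mutant and 54 in wildtype. This limit is the median over the intervals of both libraries together, and the mutant library was the lower one. Shares over all genes are not given for it. Without the Rbm genes, 38 of 44 were bound in mutant (86.4%, against 73.8% of all genes) and 44 in wildtype (99.0% of all genes were). Of these 44, 21 were at least 2-fold lower (47.7%, against 57.6%). The average value gave median heights of 7.93 and 12.4 and a median log2 ratio of -0.71, against -0.79 over all genes. By this value 18 members were at least 2-fold lower, against 30.4% of all genes. Scaling gave a median of -0.019 with 2 lower and 5 higher, and by construction turned 11 of 33 named members from below to above 0, the highest being Sf3b1 at 0.79; of these Hnrnph1, at 0.018, was at least 2-fold lower as deposited. The average value turned Hnrnpu to 0.05. The region nearest to the start gave a median wildtype height of 22 and a median ratio of -0.79, against -0.98 over all genes. Of the 80 members, 32 were then at least 2-fold lower (49.9% of all genes were) and 1 at least 2-fold higher (0.395%). Start regions within 1 kb, an alternative added after seeing the data, gave -0.72, with 21 of 66 lower (38.8% of 8061 genes were) and 1 higher (0.323%). The CArG box with 1 mismatch was in 15 members, against 0 with the exact box. Why the average value and the nearest region moved the ratios was not tested. Without a known depth no limit for low regions was computed.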
